A study of Homo sapiens with 12 samples.

Results

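The genes described here are the 10 that carry heme across membranes, chaperone it or break it down, and they were followed through K562 cells with and without the heme transporter HRG1. They were taken by symbol from the table of gene counts, SLC48A1, FLVCR1, ABCG2, ABCC5, ABCB6, PGRMC1, HMOX1, HMOX2, BLVRA and BLVRB, and all 10 were found among its 28278 genes. K562 is a human erythroleukaemia line, and sodium butyrate, an inhibitor of histone deacetylases, drives it towards the red cell lineage. The 12 libraries formed 4 groups of 3: WT untreated, WT with butyrate, HRG1-KO untreated and HRG1-KO with butyrate. Treated cells received 0.75 mM butyrate 24 h after they were plated, with another dose 48 h later, and their RNA was taken 6 h after the last dose. The series places the samples at day 8 of differentiation. All groups were grown in the same medium. How the knockout was made, how many clones stand behind it and whether the 3 libraries of a group were separate cultures is not stated in the sources used here. The p-values therefore measure the spread between these libraries only.

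Heme is made in mitochondria and is toxic when free, so cells move it between compartments with carriers and destroy the surplus. HRG1, the product of SLC48A1, passes heme from endosomes and lysosomes into the cytosol. FLVCR1, ABCG2 and ABCC5 are plasma membrane proteins that have been linked to the export of heme or porphyrins, and ABCB6 moves porphyrins across internal membranes. PGRMC1 binds heme and associates with ferrochelatase, the enzyme that inserts iron into the porphyrin ring. A heme oxygenase, the inducible HMOX1 or the constitutive HMOX2, opens the ring to biliverdin, iron and carbon monoxide. The biliverdin reductase BLVRA reduces this biliverdin to bilirubin. BLVRB, also named a biliverdin reductase, acts on other isomers of biliverdin. BLVRB is also the flavin reductase of red cells.

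Library totals ran from 19963594 to 30348538 counts, and 3 counts, taken as the limit of detection, corresponded to 0.0953 to 0.162 CPM. CPM are counts relative to a library's total, corrected for differences in composition by TMM. The first principal component separated the genotypes and held 53.1% of the variance. On the second component (20.9%) the treated libraries numbered 2 and 3 lay between -84.8 and -74.3. Treated WT replicate 1 lay at 40.9 and treated KO replicate 1 at 4.22, nearer the untreated libraries at 15.3 to 75.6, so results for butyrate were also computed from the libraries numbered 2 and 3. All 8 erythroid markers were above the limit in every library. Their summed level was 5709 to 11840 CPM in WT untreated, 15860 to 33210 in WT with butyrate, 3308 to 5973 in KO untreated and 4133 to 5695 in KO with butyrate. In the same order of groups, 6 megakaryocyte markers summed to 33.1 to 60.2, 116.7 to 226.8, 15.1 to 55.3 and 80.6 to 118.0 CPM. The sums of 6 macrophage markers were 13.8 to 23.6, 37.2 to 50.2, 21.4 to 86.4 and 58.1 to 140.5 CPM, highest in KO with butyrate. For 5 lymphoid markers they were 14.8 to 22.4, 11.7 to 24.3, 4.07 to 5.66 and 9.04 to 12.1 CPM, lowest in KO untreated. The megakaryocyte sums were higher with butyrate in both genotypes without overlap. So were the erythroid and macrophage sums in WT and the lymphoid sums in KO. In bulk RNA, fewer cells of a type and less RNA per cell cannot be told apart, and the part of these shifts in the results below was not tested.

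Of the 10 genes, 8 passed the filter on low counts, and ABCG2 and HMOX1 did not. Divided by the length of their merged exons, BLVRB was the most abundant of them in WT untreated cells at 259 CPM per kb (238 to 292, n = 3). PGRMC1 followed at 42.4 CPM per kb, BLVRA at 32.2, HMOX2 at 25.4 and SLC48A1 at 15.0. The transporters ABCB6 (7.60 CPM per kb), ABCC5 (6.17) and FLVCR1 (4.37) were the least abundant of the 8. In this order the libraries of BLVRA and HMOX2 overlapped, as did those of ABCB6 and ABCC5, and the libraries of all other neighbours were apart. Without HRG1 the top place stayed with BLVRB, at 72.8 CPM per kb untreated and 99.3 with butyrate. In KO untreated cells BLVRA had dropped to 10.7 CPM per kb, where its libraries overlapped those of ABCB6 (10.8) above and ABCC5 (7.74) below. Lengths come from the full annotated gene, so these levels depend on which exons K562 cells use.

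**Figure D1:**
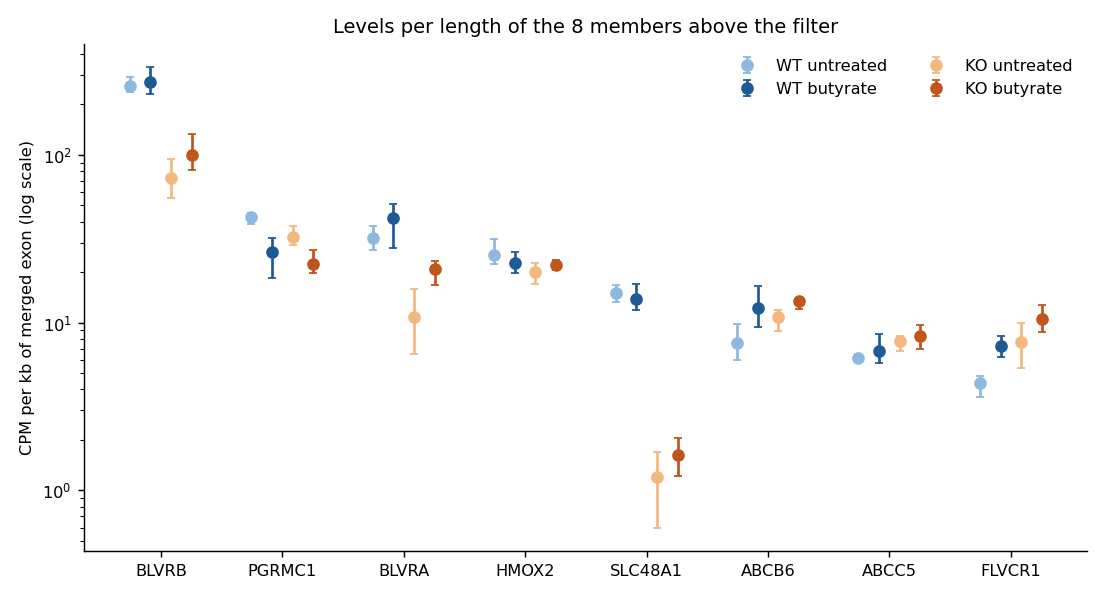
Level of the 8 genes that passed the filter, in CPM per kb of merged exon on a log axis, by group; points are means of 3 libraries and bars run from the lowest to the highest library. BLVRB lies above all others in each group, at 259 CPM per kb in WT untreated and 72.8 in KO untreated, and SLC48A1 is lowest in both KO groups.

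The importer comes first because it was the target of the knockout. SLC48A1 stood at 73.5, 82.2 and 65.4 CPM in WT untreated replicates 1, 2 and 3 and at 2.94, 8.32 and 6.55 CPM in KO untreated. With butyrate it stood at 83.8, 58.9 and 60.8 CPM in WT and 6.01, 7.99 and 10.1 CPM in KO. The genotypes did not overlap, and over both treatments KO libraries held 9.80% of the WT level (log2 fold change -3.35, SE 0.25, edgeR adjusted p = 7.34e-07). Reads counted for SLC48A1 remained in KO. Its exons share 83 bases with RAPGEF3 and 32 with HDAC7 on the opposite strand, and strand use is not given, so the source of these reads was not tested.

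The 2 genotypes differed in 4 of these genes when untreated. FLVCR1 was the gene called higher, against 11.7% of all tested genes called higher in that comparison, and SLC48A1, BLVRA and BLVRB were called lower, against 10.9% of all tested genes. A gene is called where the Benjamini-Hochberg adjusted p of edgeR's quasi-likelihood test, over the 15805 genes tested, is under 0.05. With butyrate 0 of them were called higher (background 10.1%) and 3 lower (background 8.89%), again SLC48A1, BLVRA and BLVRB. Averaged over both treatments, FLVCR1 was higher and SLC48A1, BLVRA and BLVRB were lower in KO, where 19% of all tested genes were called higher and 17.5% lower. The median change over the 8 genes was -0.25 on the log2 scale in that average, beside 0.0056 over all tested genes. SLC48A1 is the edited gene itself. Set against 19% and 17.5% of all tested genes, 3 calls among the other 7 tested genes are near the background.

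**Figure D2:**
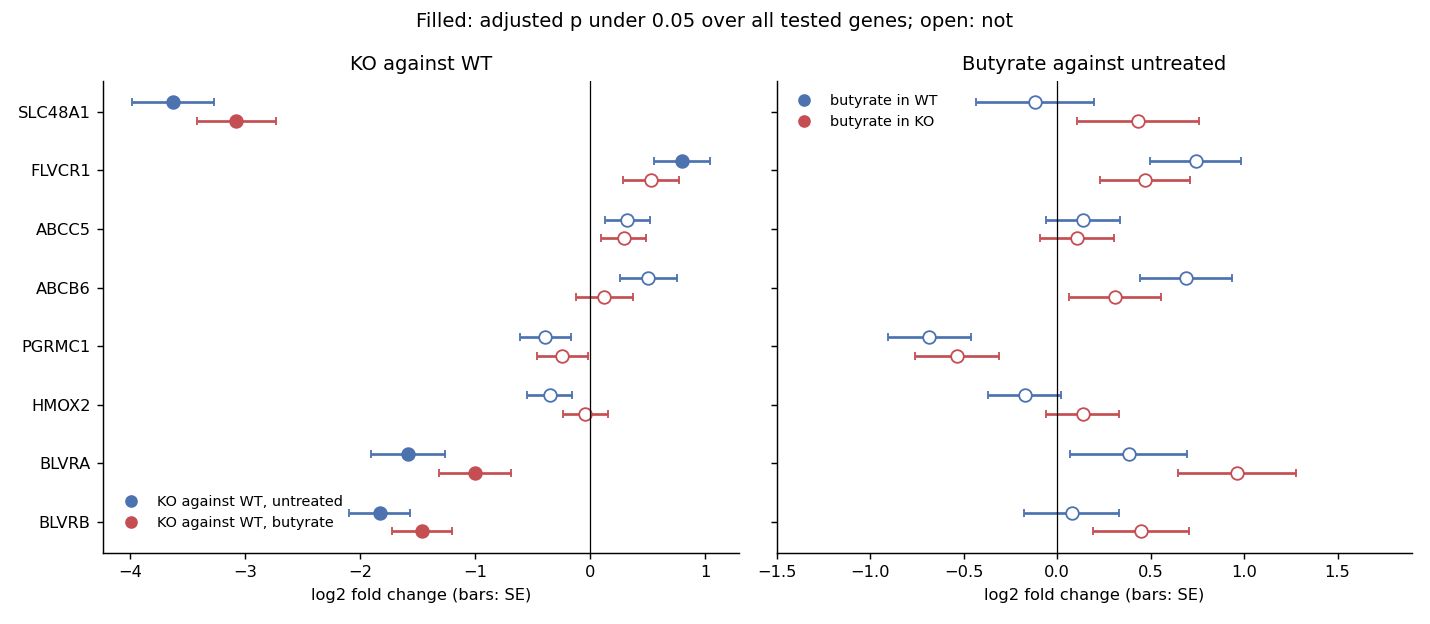
Log2 fold changes with their SE for KO against WT (left) and for butyrate against untreated cells (right), fitted with edgeR; filled points passed adjusted p under 0.05 and open points did not. BLVRB and BLVRA lie left of 0 in both genotype comparisons, and in the right panel every point is open.

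BLVRB, which reduces flavins and biliverdin, showed the largest change after SLC48A1. WT untreated libraries held 402, 493 and 416 CPM, and KO untreated libraries held 116, 93.3 and 159 CPM. With butyrate, WT libraries held 564, 392 and 430 CPM and KO libraries 141, 138 and 225 CPM. In both treatments the highest KO library was below the lowest WT library. The log2 fold change for KO against WT was -1.83 (SE 0.26, edgeR adjusted p = 0.000335) untreated and -1.46 (SE 0.26, edgeR adjusted p = 0.00191) with butyrate. Averaged over treatments it was -1.65 (SE 0.18, edgeR adjusted p = 2.36e-05), which leaves 32.0% of the WT level. Leaving out any 1 of the 12 libraries kept this average between -1.80 and -1.58 and past the threshold. Butyrate gave log2 changes of 0.079 in WT and 0.45 in KO, with overlapping libraries in both genotypes.

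BLVRA, the main biliverdin reductase of adult tissues, was also lower in KO. It held 57.7, 68.5 and 49.6 CPM in WT untreated libraries and 11.9, 17.97 and 28.7 CPM in KO untreated libraries. With butyrate the values were 50.9, 93.2 and 84.8 CPM in WT and 30.6, 42.2 and 41.7 CPM in KO. The genotypes did not overlap in either treatment. In untreated cells the log2 fold change was -1.58 (SE 0.32, edgeR adjusted p = 0.00349). With butyrate it was -0.999 (SE 0.31, edgeR adjusted p = 0.0423), a call that hung on single libraries. Of the 6 fits that leave out a treated library, 1 passed, that without WT replicate 1 (adjusted p = 0.0146), and the highest adjusted p was 0.152, without WT replicate 2. With the replicate number as a block the adjusted p was 0.00920, and with library size alone as the scaling it was 0.0922. Averaged over treatments KO cells held 40.9% of the WT level (log2 fold change -1.29, SE 0.22, edgeR adjusted p = 0.000681), past the threshold without any 1 library.

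Butyrate and BLVRA were also compared within KO cells, where the treated libraries lay above the untreated ones without overlap. The log2 change there was 0.96 (SE 0.32) and missed the threshold (edgeR adjusted p = 0.117). It passed with the replicate block (log2 1.00, adjusted p = 0.0216) and with DESeq2 (adjusted p = 0.0408). In WT the change was 0.38 with overlapping libraries. Averaged over genotypes the change was 0.67 (SE 0.22, edgeR adjusted p = 0.0594), with an adjusted p of 0.0140 with the block, 0.0237 with DESeq2 and 0.0148 in the libraries numbered 2 and 3. The difference between the 2 responses was 0.58 (SE 0.44, edgeR adjusted p = 1.00) and did not pass.

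The promoters of both reductases are shown because these genes fell together in KO. Each is 300 bases of GRCh38.p14 from RefSeq, 250 before and 50 after the annotated start, written 5′ to 3′ along the gene's strand. Capitals mark the GC box, GGGCGG or its reverse CCGCCC, a site known to bind SP1-type factors. BLVRA lies at chr7:43758430-43758729 on the plus strand and BLVRB at chr19:40465696-40465995 on the minus strand.
BLVRA: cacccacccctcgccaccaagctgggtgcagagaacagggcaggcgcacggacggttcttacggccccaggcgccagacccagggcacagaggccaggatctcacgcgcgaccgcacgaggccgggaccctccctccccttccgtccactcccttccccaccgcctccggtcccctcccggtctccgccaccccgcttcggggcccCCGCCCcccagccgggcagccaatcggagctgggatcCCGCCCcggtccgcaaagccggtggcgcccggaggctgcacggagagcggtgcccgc
BLVRB: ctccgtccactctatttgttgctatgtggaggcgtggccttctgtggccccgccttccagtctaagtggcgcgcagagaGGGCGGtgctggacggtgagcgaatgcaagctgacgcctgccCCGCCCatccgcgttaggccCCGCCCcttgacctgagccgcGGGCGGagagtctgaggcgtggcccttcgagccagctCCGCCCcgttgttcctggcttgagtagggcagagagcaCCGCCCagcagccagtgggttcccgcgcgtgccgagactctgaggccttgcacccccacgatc
BLVRA held 2 GC boxes and BLVRB held 6, and 45.0% of the 35116 promoters in the table held at least 1. Their GC contents were 75.0% and 67.3%, with a median of 58.7% over all promoters. Neither window held the antioxidant response element core TGACNNNGC (found in 13.3% of all promoters), the Maf recognition element (0.154%), the GATA motif AGATAA (10.3%) or the E-box CACGTG (7.26%), searched on both strands. The E-box falls inside no other motif searched, but the core can overlap both the E-box and the Maf element. Among the other promoters of these genes, the core was in ABCB6 and in 1 of 5 ABCG2 promoters. The E-box was in ABCB6, in 2 ABCG2 promoters and in 1 of 2 HMOX2 promoters. In ABCB6 it shares bases with the core, and the 2 ABCG2 windows overlap and hold the same E-box. HMOX1 was not in the table.

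The balance of the 2 reductases was compared as the ratio of their counts within a library. BLVRB counts exceeded BLVRA counts by 7.52 ± 0.759 times (SD, n = 3) in WT untreated and by 6.83 ± 2.54 times in KO untreated. With butyrate the ratio was 6.78 ± 3.74 in WT, where replicate 1 stood at 11.1 and the other libraries at 4.20 and 5.07, and 4.42 ± 1.08 in KO. The log2 ratio in KO minus that in WT averaged -0.36, which an exact permutation test within treatments did not call (two-sided p = 0.23, smallest possible p 0.005). Without 1 library it ran from -0.50 to -0.15, the latter without treated WT replicate 1. For butyrate the average change was -0.44 (exact permutation p = 0.115 within genotypes), and without treated WT replicate 1 it was -0.65 (exact permutation p = 0.01). Adjusted over the 12 ratio tests made, the p-values of both averages over all libraries were 0.69. Those of the 12 tests that compared 3 libraries with 3 could not pass, since their smallest possible p was 0.1. The fall in the 2 reductases was thus not shown to be unequal.

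Chromosome position was examined because the genotype change differed between chromosomes. BLVRA is on chromosome 7 (43758680 to 43807342, plus strand, GRCh38), where the median change in KO over both treatments was -0.83 across 712 tested genes, 60.1% of which were called lower. Within 1 Mb of BLVRA, 13 of 24 tested genes were called lower and 1 higher, with a median of -0.50. BLVRB is on chromosome 19 (40447765 to 40465840, minus strand), where the median was -0.047 and 14.5% of 1145 tested genes were called lower. Near BLVRB 5 of 45 tested genes were called lower and 7 higher, with a median of -0.0020. BLVRA therefore fell where most tested genes of its chromosome fell, and BLVRB fell where they did not. The part of chromosome 7 in the BLVRA difference was not tested.

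**Figure D3:**
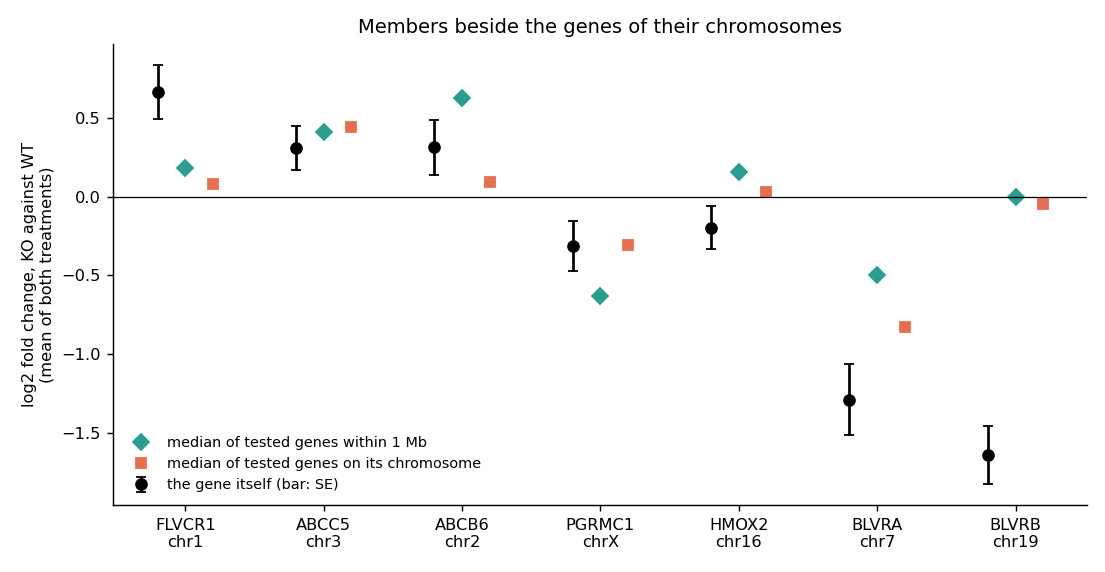
Log2 fold change for KO against WT, mean of both treatments, of 7 genes (black, with SE) beside the median of tested genes within 1 Mb (diamonds) and on the same chromosome (squares). Chromosome 7 has a median of -0.83 beside -1.29 for BLVRA, and chromosome 19 a median of -0.047 beside -1.65 for BLVRB.

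FLVCR1, which has been described as an exporter of heme and as a choline transporter, was the one gene called higher in KO. WT untreated libraries held 30.3, 23.2 and 30.9 CPM and KO untreated libraries 64.5, 48.2 and 34.7 CPM. With butyrate the values were 40.4, 53.6 and 47.0 CPM in WT and 65.3, 81.9 and 56.7 CPM in KO. All KO libraries were above the WT libraries of the same treatment, with KO untreated replicate 3 the closest to WT. The untreated log2 fold change was 0.80 (SE 0.24, edgeR adjusted p = 0.0322), and it passed in 1 of the 6 fits that leave out an untreated library, that without KO replicate 3 (0.0167). Without KO replicate 1 it fell to 0.56 (adjusted p = 0.151), and without WT replicates 1, 2 and 3 and KO replicate 2 the adjusted p was 0.0625, 0.121, 0.0686 and 0.0846. The libraries numbered 2 and 3 gave 0.59 (adjusted p = 0.114), and library size alone gave 0.77 (adjusted p = 0.0577). With butyrate the change was 0.53 (SE 0.24, edgeR adjusted p = 0.153). The average over treatments, 0.67 (SE 0.17, edgeR adjusted p = 0.00874) or 1.59-fold, passed without any 1 of the 12 libraries. On chromosome 1 the median change was 0.085, and within 1 Mb of FLVCR1 4 of 14 tested genes were called higher and 3 lower.

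**Figure D4:**
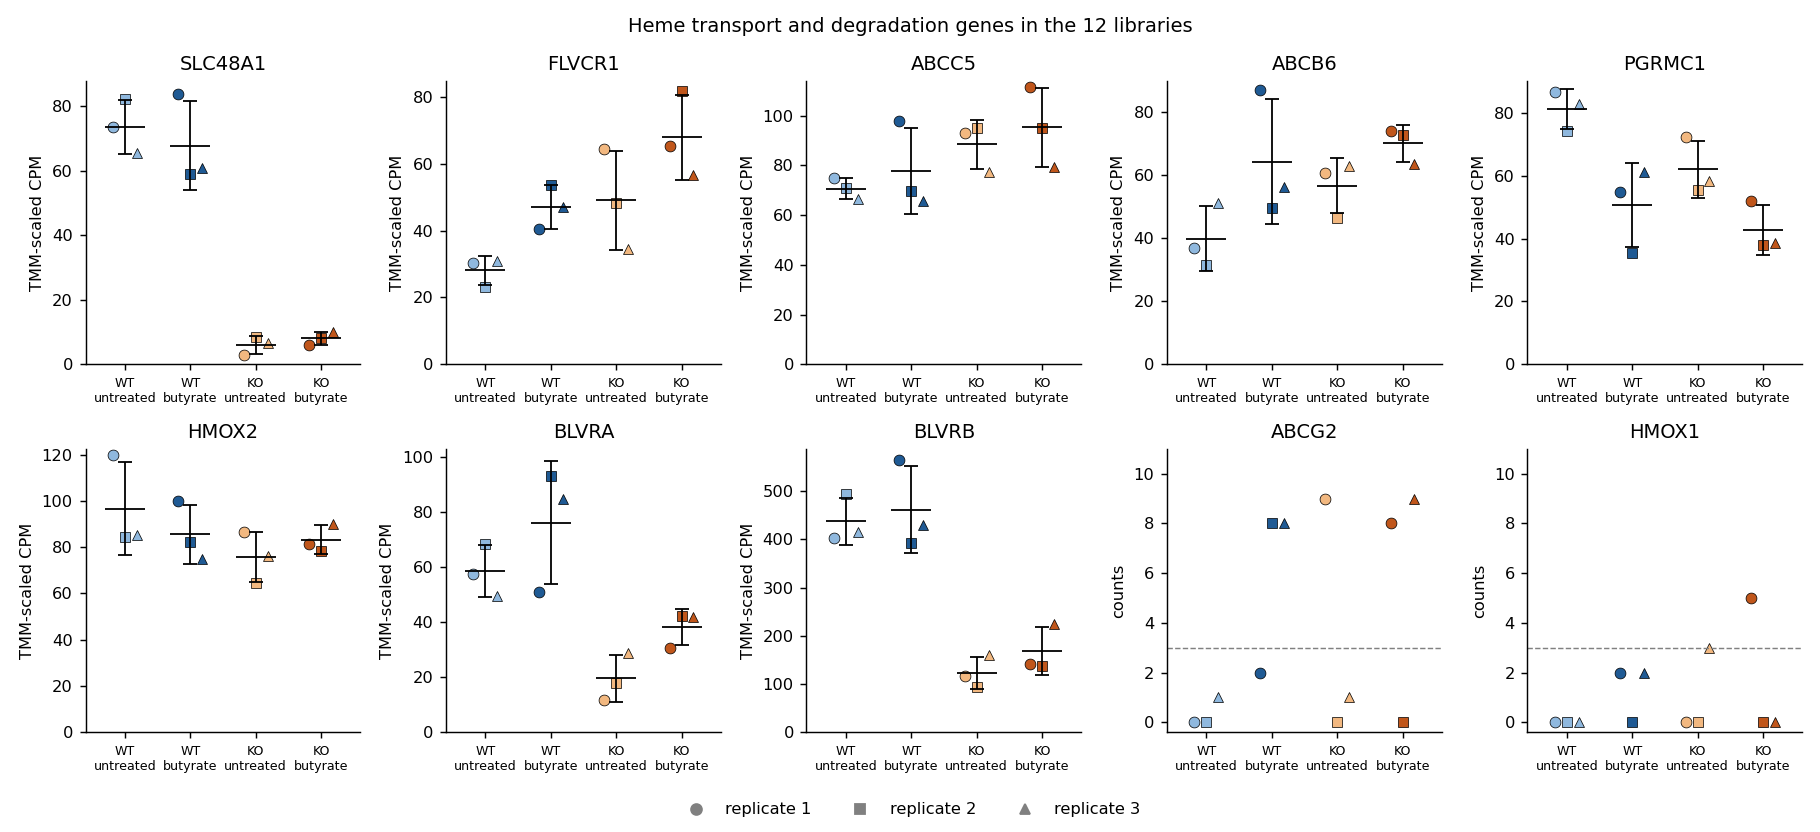
Each of the 10 genes in the 12 libraries, as TMM-scaled CPM with mean and SD of 3 libraries, or as counts for ABCG2 and HMOX1 with a dashed line at the limit of 3 counts; marker shape gives the replicate number. BLVRB and BLVRA are lower in every KO library, FLVCR1 is higher in KO at each treatment, and HMOX1 passes 3 counts in 1 library.

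Butyrate moved 0 of the 8 tested genes past the threshold within WT, where 1.8% of all tested genes were called higher and 0.55% lower, and 0 within KO, where 2.8% were called higher and 0.595% lower. At an unadjusted p under 0.05 the counts were 3 and 2. DESeq2 called 0 in WT and 1 in KO, BLVRA, where it called 8.42% and 9.73% of all tested genes. The replicate block called 1 in each, PGRMC1 in WT and BLVRA in KO, where it called 8.61% and 11.7% of all tested genes. Averaged over both genotypes, FLVCR1 was called higher, beside 9.22% of all tested genes, and PGRMC1 lower, beside 5.37%. In this average DESeq2, the replicate block and a minimum of 10 counts in each library all called 4 of the 8 tested genes, beside 21.7%, 26.5% and 13.7% of all genes they tested. The median change over the 8 genes was 0.21 in it, beside 0.031 over all tested genes. Single libraries moved that count between 0 and 3.

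FLVCR1 rose 1.52-fold with butyrate on average (log2 0.61, SE 0.17, edgeR adjusted p = 0.0346). Treated WT libraries were above all untreated WT libraries (log2 0.74, adjusted p = 0.136), whereas the KO libraries overlapped (0.47, adjusted p = 0.310). The average passed in 4 of the 12 fits that leave out 1 library, with an adjusted p of up to 0.0924 (without treated WT replicate 2). FLVCR1 was thus lowest in WT untreated cells, at 28.1 ± 4.25 CPM, and highest in KO cells with butyrate, at 68.0 ± 12.8 CPM.

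PGRMC1, a heme-binding protein of internal membranes, moved the other way. It stood at 86.7, 74.3 and 82.8 CPM in WT untreated libraries and at 54.8, 35.6 and 61.4 CPM in treated ones. In KO it stood at 72.6, 55.5 and 58.4 CPM untreated and at 52.2, 38.0 and 38.6 CPM with butyrate. Treated libraries were below the untreated ones of their genotype without overlap. The log2 change was -0.68 in WT (SE 0.22, edgeR adjusted p = 0.135) and -0.54 in KO (SE 0.22, edgeR adjusted p = 0.206). With the replicate block the WT value was -0.70 with an adjusted p of 0.0304. Averaged over genotypes it was -0.61 (SE 0.16, edgeR adjusted p = 0.0251), or 65.6% of the untreated level. That average passed in 6 of the 12 fits without 1 library, with an adjusted p of up to 0.0692 (without treated KO replicate 2). The genotype change of -0.31 did not pass (edgeR adjusted p = 0.143), on a chromosome, X, whose median was -0.31.

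The promoters of FLVCR1 and PGRMC1 are shown because these were the 2 genes called for butyrate, in opposite directions. They lie at chr1:212858025-212858324 and chrX:119236035-119236334, both on the plus strand, from the same RefSeq table and with GC boxes in capitals.
FLVCR1: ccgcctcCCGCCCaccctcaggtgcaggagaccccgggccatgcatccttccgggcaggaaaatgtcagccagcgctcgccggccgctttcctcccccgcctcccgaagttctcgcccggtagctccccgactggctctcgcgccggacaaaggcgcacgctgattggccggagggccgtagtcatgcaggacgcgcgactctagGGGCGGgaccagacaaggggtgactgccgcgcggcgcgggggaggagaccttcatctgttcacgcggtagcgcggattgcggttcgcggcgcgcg
PGRMC1: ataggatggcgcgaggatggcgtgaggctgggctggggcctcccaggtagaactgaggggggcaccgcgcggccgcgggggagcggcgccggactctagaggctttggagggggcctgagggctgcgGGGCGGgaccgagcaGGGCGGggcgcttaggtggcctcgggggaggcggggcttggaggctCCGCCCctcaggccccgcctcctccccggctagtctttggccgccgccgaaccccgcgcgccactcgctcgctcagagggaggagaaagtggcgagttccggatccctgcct
FLVCR1 held 2 GC boxes and PGRMC1 held 3, in windows of 70.7% and 74.0% GC. The other 4 motifs had no match in either window.

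ABCB6, a porphyrin transporter of mitochondria and lysosomes that also carries the Langereis blood group, did not pass the threshold for butyrate or for genotype. Its libraries held 36.9, 31.3 and 51.1 CPM in WT untreated and 86.8, 49.5 and 56.2 CPM in WT with butyrate, which overlap. In KO they held 60.5, 46.5 and 62.6 CPM untreated and 73.9, 72.7 and 63.3 CPM with butyrate, which do not. The average butyrate change was 0.50 (SE 0.17, edgeR adjusted p = 0.0731), and it passed with the replicate block (adjusted p = 0.0278), with DESeq2 (0.0339) and with library size alone (0.0405). For genotype the average was 0.32 (edgeR adjusted p = 0.180). Of the exonic bases of ABCB6, 54.7% are shared with AC068946.2, annotated on the same strand, so its reads may be split between the 2 genes.

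ABCC5, an exporter of cyclic nucleotides that has been linked to heme export, did not pass in any comparison. It held 74.8, 70.7 and 66.4 CPM in WT untreated libraries and 92.9, 95.2 and 77.3 CPM in KO untreated libraries. With butyrate the values were 97.8, 69.7 and 65.8 CPM in WT and 111, 95.1 and 79.4 CPM in KO. The untreated genotypes were apart and the treated ones overlapped. The average genotype change was 0.31 (SE 0.14, edgeR adjusted p = 0.103), and it passed with the replicate block (0.0311) and with library size alone (0.0324). ABCC5 lies on chromosome 3, where the median change was 0.45 and 38.7% of 817 tested genes were called higher. The part of that chromosome in the ABCC5 value was not tested.

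ABCG2, an exporter of porphyrins and urate that marks stem-like blood cells, was at the edge of detection. It had 0, 0 and 1 counts in WT untreated libraries and 2, 8 and 8 in WT with butyrate. In KO it had 9, 0 and 1 counts untreated and 8, 0 and 9 with butyrate. Treated WT libraries were above the untreated ones (two-sided exact permutation p = 0.1, the smallest 3 libraries against 3 allow), and the other comparisons overlapped. Treated WT replicate 1, at 2 counts, and all untreated WT libraries were below the limit of 3 counts. The separation of treated from untreated WT is therefore not resolved. The counts in KO untreated came almost wholly from replicate 1, and both KO groups held a library at 0. ABCG2 was also set against FLVCR1 as a ratio of counts. Comparisons of 3 libraries with 3 could not pass there, since their smallest possible p was 0.1. The averages could pass and did not (exact permutation p = 0.295 for butyrate and 0.675 for genotype, smallest possible p 0.005). Where ABCG2 had 0 counts, the pseudocount alone stood for it in the ratio, so no conclusion is drawn from these tests.

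The heme oxygenases differed from each other far more than they differed between groups. HMOX1, the form that heme and oxidants induce, had 12 counts among the 294197996 of all libraries. It was at 0 in 8 libraries and had 2 counts in treated WT replicates 1 and 3, 3 counts in KO untreated replicate 3 and 5 counts in treated KO replicate 1. That last library was the only one of the 12 above the limit of 3 counts. At this depth no difference in HMOX1 between groups was detectable.

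HMOX2, the constitutive form, held 119.7, 84.5 and 85.4 CPM in WT untreated libraries and 99.7, 82.1 and 74.8 CPM in WT with butyrate. KO libraries held 86.3, 64.6 and 75.98 CPM untreated and 81.3, 78.2 and 90.1 CPM with butyrate. All groups overlapped. The genotype change averaged -0.20 (SE 0.14, edgeR adjusted p = 0.298) and the butyrate change -0.018 (SE 0.14, edgeR adjusted p = 0.961). In the 11 libraries where HMOX1 was at or below the limit, HMOX2 per kb was at least 287- to 591-fold higher than that limit. An antisense gene, NMRAL1, shares 228 exonic bases with HMOX2, and the use of strand in counting is not given in the sources used here.

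Tested for a difference between the genotypes in the butyrate response, 0 of the 8 tested genes passed in either direction, and 0% of all tested genes were called higher or lower. At an unadjusted p under 0.05 the count was also 0, and DESeq2 and the replicate block called 0 of them, although DESeq2 called 65 of all tested genes higher and 21 lower, 0.544% in all, and the block called 0.019%. The estimates ran from -0.38 for ABCB6 to 0.58 for BLVRA, with SE of 0.35 and 0.44.

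For the 4 tested genes whose group means spanned more than 1 on the log2 scale, the genes most alike in profile were sought. Likeness was the root mean square difference in centred log2 CPM over the 12 libraries. BLVRB was closest to LINC00923 (0.24), CAT (0.25) and BRI3 (0.25), against a root mean square of 0.89 for BLVRB itself. CAT encodes catalase, which breaks down hydrogen peroxide. BLVRA was closest to CD33, GLUL and HPS1, all at 0.26, against 0.84 for BLVRA itself. None of these 3 is on chromosome 7, while BRI3 is. FLVCR1 was closest to LIMK2 (0.20), TTPAL (0.21) and APEX2 (0.21), against 0.51 for itself, and SLC48A1 to MPP1 (0.34), GAB3 (0.43) and PRKAR1B-AS1 (0.47), against 1.75. These profiles share libraries and scaling, and they carry no test.

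Around these genes, a list of 18 other heme handling genes had 15 that were tested. In KO averaged over treatments 3 of them were called higher and 3 lower, beside 19% and 17.5% of all tested genes. Their median change was -0.035, and the share called lower is near the background. The 3 called higher include FLVCR2 and SLC49A4, whose direction was fixed by the filter, so that share is not read. POR, the reductase that passes electrons to heme oxygenases, fell from 115 ± 14.9 CPM in WT untreated to 46.0 ± 2.38 CPM in KO untreated (SD, n = 3). Averaged over treatments its change was -1.28 (SE 0.13, edgeR adjusted p = 1.13e-05), and POR also lies on chromosome 7 (median -0.83). HEBP1 and HEBP2, which bind heme, had changes of -1.29 (SE 0.41, edgeR adjusted p = 0.0271) and -0.49 (SE 0.15, edgeR adjusted p = 0.0190). The HEBP1 call held in 5 of 12 fits that leave out 1 library, with an adjusted p of up to 0.0687 (without treated WT replicate 2), and the HEBP2 call was lost without WT untreated replicate 2 (0.0566).

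The 3 of this list called higher in KO were FLVCR2, a relative of FLVCR1, SLC49A4 of the same family, and LRP1, the receptor for hemopexin-bound heme. FLVCR2 and SLC49A4 passed the filter on low counts through the KO groups, which fixes their direction. The list's count of 3 higher includes them and is therefore not read as a result. FLVCR2 had at most 3 counts in each WT untreated library and SLC49A4 likewise, so in untreated cells KO was at least 5.90-fold higher for FLVCR2 and at least 36.9-fold higher for SLC49A4. FLVCR2 lies on chromosome 14, where the median change was 0.60. LRP1 stood at 5.96 ± 5.04 CPM in WT untreated and 115 ± 47.5 CPM in KO untreated, and its average change was 2.90 (SE 0.57, edgeR adjusted p = 0.00153). With butyrate it stood at 62.0 ± 46.2 and 182 ± 62.8 CPM, a change of 1.55 that was not called (edgeR adjusted p = 0.182). Butyrate raised LRP1 as well, by 2.01 averaged over genotypes (edgeR adjusted p = 0.0294), a call that held in 4 of 12 fits without 1 library (highest adjusted p 0.0696, without WT untreated replicate 2). UGT1A1, which conjugates bilirubin for excretion, had 0 counts in every library.

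Of 6 regulators of HMOX1, all were tested, and in KO averaged over treatments 0 were called higher and 3 lower (background 19% and 17.5%), with a median change of -0.60. BACH1, the heme-sensing repressor of HMOX1, stood at 83.5 ± 7.72 CPM in WT untreated and 47.5 ± 2.13 in KO untreated. With butyrate it stood at 78.6 ± 14.3 and 43.9 ± 5.87 CPM. Its average change was -0.83 (SE 0.13, edgeR adjusted p = 0.000302), while its target HMOX1 was at or near 0 in both genotypes. The small Maf partners MAFG and MAFK changed by -0.69 (edgeR adjusted p = 0.00198) and -1.05 (0.000293), and MAFK too is on chromosome 7. Chromosome 21, which holds BACH1, had a median of -0.35. Butyrate lowered MAFF by 0.72 and raised MAFK by 0.56 averaged over genotypes (edgeR adjusted p = 0.0270 and 0.0374), and without 1 library these calls held in 5 and 3 of 12 fits, with adjusted p of up to 0.0687 (without treated KO replicate 2) and 0.0955 (without treated WT replicate 2).

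Of 8 enzymes of heme synthesis, 2 were called higher and 2 lower in KO averaged over treatments, near the background of 19% and 17.5%, with a median change of 0.14. ALAS2, the erythroid first step, rose by 1.75 and PPOX by 0.71, and UROS and FECH changed by -0.51 and -0.73. For ALAS2 the average joins unequal values, a called 2.91 untreated (24.0 ± 14.2 CPM in WT, 181 ± 23.2 in KO) and an uncalled 0.59 with butyrate (193 ± 54.9 and 290 ± 25.5 CPM, edgeR adjusted p = 0.264). The UROS call (edgeR adjusted p = 0.0343) held in 5 of 12 fits without 1 library, with a highest adjusted p of 0.0727 (without treated WT replicate 2), and FECH lies on chromosome 18, whose median was -0.59. With butyrate 6 of the 8 were called higher averaged over genotypes and 0 lower (background 9.22% and 5.37%), with a median of 0.72. By sign alone 7 were higher and 1 lower. The lower one was UROD, at 371 ± 77.9 CPM untreated and 192 ± 106 CPM with butyrate in WT, without overlap. In KO it stood at 288 ± 34.2 and 207 ± 60.2 CPM, where the libraries overlapped. ALAS2 had the largest average, 1.84 (SE 0.25, edgeR adjusted p = 0.000893), which joined 3.00 in WT (adjusted p = 0.00386) and an uncalled 0.68 in KO (adjusted p = 0.289). The difference between those responses was not called (edgeR adjusted p = 0.244). ALAS1 averaged 0.69 (edgeR adjusted p = 0.0115), a call that held in 12 of 12 fits without 1 library. ALAD averaged 1.43 and UROS 1.24, and both of these were called in each genotype. Within a genotype, 6 fits leave out a compared library. The UROS call held in 2 of them in WT and 2 in KO, with adjusted p of up to 0.0808 and 0.156. The ALAD call held in 6 of 6 in WT but in 2 of 6 in KO, with an adjusted p of up to 0.135. The average calls of PPOX and CPOX also rested on single libraries. They held in 4 and 9 of 12 fits without 1 library, with adjusted p of up to 0.0958 and 0.0542, both without KO untreated replicate 2.

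**Figure D5:**
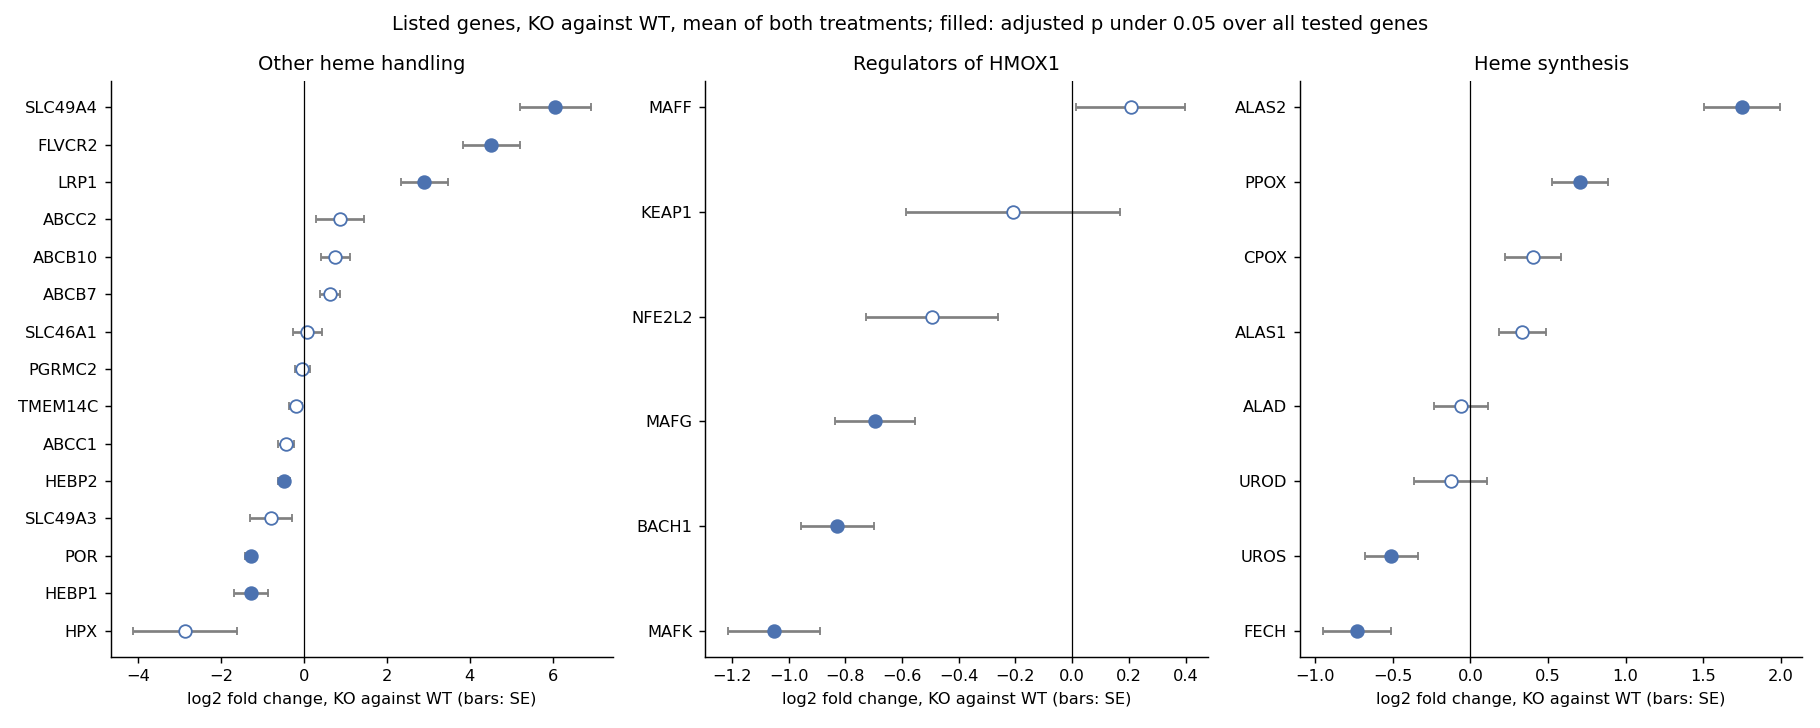
Log2 fold changes with SE for KO against WT, mean of both treatments, in 3 lists: other heme handling genes, regulators of HMOX1 and heme synthesis enzymes; filled points passed adjusted p under 0.05 in edgeR. POR, BACH1, MAFG and MAFK lie left of 0 at -1.28, -0.83, -0.69 and -1.05, and FLVCR2, SLC49A4, LRP1 and ALAS2 lie right of it.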

How the data were processed

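The authors deposited RNA sequencing of 12 K562 libraries as raw counts of reads, 1 line for each gene symbol and 1 column for each library. Reads were checked with FastQC 0.12.1 and aligned to hg38 with STAR 2.7.11b, per the submitters' processing notes. The counting tool, annotation and use of strand are not given in the sources used here. All columns matched a sample by library name, and 0 were left unused. Replicates differed by more than sampling noise, with a smallest chi-square per degree of freedom of 40.

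Counts were analysed in R 4.3.3 with edgeR 4.0.16: filterByExpr with a minimum count of 10 (15805 genes kept), TMM scaling, and 1 quasi-likelihood fit over all 12 libraries (biological coefficient of variation 0.384). Adjusted p-values are Benjamini-Hochberg over all tested genes. Single genes and count ratios (pseudocount 0.5) were compared by exact permutation over libraries. The 10 genes and the other lists were chosen with earlier results of these data known. All 10 are named. Genes of the other lists are named where called, or, if none was, by the largest change. UROD and UGT1A1 are named in addition, though not called. A result left unreported here is also left out of the list counts. The ratio of HMOX1 to HMOX2 was planned but not computed, since HMOX1 was at or below 3 counts in 11 libraries, so ratio p-values were adjusted over 12 tests. The 3-count limit covers counting error only. Gene positions and merged exon lengths are from GENCODE release 29 (GRCh38), and promoters from RefSeq (GRCh38.p14), which held 9 of the 10 genes.

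Replicate numbers were taken from the titles. Same-numbered libraries deviated together from their group means, with correlations of 0.195 to 0.409 for butyrate in WT, 0.147 to 0.468 in KO, 0.21 to 0.361 for genotype untreated and 0.315 to 0.595 with butyrate. Differently numbered libraries gave, in the same order, -0.439 to 0.186, -0.441 to 0.123, -0.288 to 0.0692 and -0.512 to 0.343. The 2 ranges overlapped only for genotype with butyrate. Same-numbered libraries may therefore be paired, but the main fit and the permutation tests did not use the numbers. Values with the replicate number as a block stand beside results whose call they changed. Alternatives were DESeq2 1.42.0, library size alone, no filter, at least 10 counts in every library, the replicate block, leaving out each library and the libraries numbered 2 and 3. Scripts were tested on simulated data.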

Additional observations from a re-analysis of the deposited data

How the results depend on the processing

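Of 1008 log2 fold changes of the 8 tested genes under the alternatives, 927 kept their direction and their side of the threshold, 31 lost a call, 20 gained one and 30 changed sign. With the replicate block, butyrate called 1 gene in WT, 1 in KO and 4 averaged over genotypes. DESeq2 called 1 in KO and 4 in that average, and a minimum of 10 counts in every library called 4. For these 10 genes the block changed no call other than those given beside the results.

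Leaving out 1 library moved the count of called genes between 3 and 4 for genotype untreated, 2 and 3 with butyrate, 4 and 6 averaged over treatments, and 0 and 3 for butyrate averaged over genotypes. The log2 ratio of BLVRB to BLVRA ranged from -0.65 to -0.29 for the average butyrate change and from -0.50 to -0.15 for the average genotype change. That of ABCG2 to FLVCR1 ranged from 0.64 to 1.91 for the average butyrate change, -0.86 to 1.67 for butyrate in KO, -0.42 to 1.58 for genotype untreated, -2.26 to 0.19 with butyrate and -0.92 to 0.42 averaged. With a pseudocount of 5 it was -0.39, -0.27 and -0.11 for butyrate in KO, genotype untreated and average butyrate, and -0.60 for genotype untreated in the libraries numbered 2 and 3. It rests on few ABCG2 counts.

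Of the other listed genes, the call was lost in the libraries numbered 2 and 3 for HEBP2 (adjusted p = 0.0661) and UROS (0.0860) by genotype and for PPOX (0.05003) by butyrate. The butyrate call was lost without a filter for MAFF (0.0635) and MAFK (0.0777), and with library size alone for MAFF (0.0574). Over all genes, butyrate called 285 higher and 87 lower in WT, against 931 and 400 with DESeq2, and 443 higher and 94 lower in KO, against 1158 and 380. In both directions together the block called 1361 in WT and 1852 in KO, and the libraries numbered 2 and 3 called 1884 and 2164. Leaving out 1 library gave 43 (without WT untreated replicate 2) to 1243 genes in WT and 48 (without KO untreated replicate 2) to 1039 in KO, the most in both without treated WT replicate 1. For average butyrate it gave 1198 (without treated WT replicate 2) to 3795 (without treated WT replicate 1). Library size alone raised the median of all genes by 0.12 for butyrate in KO and by 0.11 for the interaction.

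Sign changes of uncalled values without 1 library gave these ranges. ABCC5 ran from -0.070 to 0.24 for butyrate in WT, -0.024 to 0.24 in KO and -0.16 to 0.19 for the interaction. HMOX2 ran from -0.31 to 0.0057 for butyrate in WT, -0.15 to 0.075 for genotype with butyrate and -0.082 to 0.070 for average butyrate. BLVRB ran from -0.098 to 0.18 for butyrate in WT, ABCB6 from -0.029 to 0.39 for genotype with butyrate, PGRMC1 from -0.052 to 0.32 for the interaction and SLC48A1 from -0.0060 to 0.31 for average butyrate. In the libraries numbered 2 and 3, ABCC5 was at -0.030 and BLVRB at -0.16 for butyrate in WT, HMOX2 at 0.079 for genotype with butyrate, ABCC5 at 0.031 for the interaction, and SLC48A1 at -0.023, ABCC5 at -0.015 and HMOX2 at 0.057 for average butyrate. With library size alone, HMOX2 was at 0.065 for genotype with butyrate and 0.049 for average butyrate, and ABCC5 at 0.10 for the interaction. HMOX2 for average butyrate was at 0.0070 with DESeq2 and 0.050 where each library had to hold 10 counts. The cause of these changes was not tested. Depth limits HMOX1 and ABCG2, which no setting could test reliably.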
